A study of Drosophila melanogaster with 6 samples.

Results

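The genes described here encode contractile proteins of the sarcomere, the repeating unit of muscle that also drives the visceral muscle around the fly gut. They are *Mhc*, *Mlc2*, *Act57B*, *Act87E*, *Tm2*, *up*, *wupA*, *bt*, *sls* and *Mlp60A*, and they were taken by name, 10 genes of the 17558 in the count table. All 10 had at least 10 counts in at least 3 samples and were tested among 10374 genes. RNA came from enteroendocrine cells (EEs), the hormone-secreting cells of the midgut epithelium, which are not muscle cells. The 3 *pros*-depleted samples are labelled ProsV1-Gal4ts>UAS-GFP; pros-RNAi, with the driver spelled Gal5ts and Gal6ts in the labels of replicates 2 and 3, and the 3 control samples ProsV1-Gal4ts>UAS-GFP. All flies were adult females aged 5 to 7 days that were then kept at 29 °C for 7 days, which lets the prosV1 driver make GFP and, in the depleted flies, the hairpin RNA against *pros*, a homeodomain transcription factor of EEs. About 20000 GFP+ cells without propidium iodide staining were sorted from pooled guts for each sample, and their RNA was amplified before sequencing.

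In a sarcomere, thick filaments of myosin slide along thin filaments of actin. Tropomyosin and the troponin complex sit on the thin filament and make this sliding depend on calcium, with troponin T holding the complex to tropomyosin, troponin I blocking the myosin sites and troponin C binding calcium. Giant elastic proteins tie the thick filaments to the Z disc, the plate at either end of the sarcomere in which thin filaments are anchored. Cells that are not muscle use other actins and myosins for shape, division and transport.

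The samples held between 27183747 and 40766059 counts on genes, and a level of 3 counts, used as the detection floor, equalled 0.0755 to 0.11 CPM (counts over the library size in units of 1e6 counts, scaled by TMM). The targeted gene *pros* averaged 154 ± 14.3 CPM in *pros*-depleted EEs and 628 ± 182 CPM in control EEs (SD, n = 3 each). Its log2 fold change, which here always sets *pros*-depleted over control EEs, was -2.03 (SE 0.237, Benjamini-Hochberg adjusted p = 0.000763 in edgeR's quasi-likelihood test). Across all genes tested, 491 were called higher and 826 lower, where a call needs both an adjusted p below 0.01 and a log2 fold change beyond 0.5 in either direction. EE markers summed to between 5490 and 10100 CPM in *pros*-depleted samples and between 77100 and 89000 CPM in control samples, with 7 of 8 called lower and *Syt4* called higher. The 7 called lower include *pros* itself, the target of the hairpin RNA. Enterocyte markers, with 4 of 8 called higher, summed to between 3220 and 8020 CPM against 741 to 2100 CPM. Progenitor markers, with 5 of 7 called higher, summed to between 544 and 780 CPM against 205 to 308 CPM. In bulk samples, fewer cells of a type and less RNA per cell cannot be told apart.

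The contractile genes did not move as a group. The troponin T gene *up* fell and the projectin gene *bt* rose in *pros*-depleted EEs, and the other 8 genes were not called. These 2 calls among 10 genes stand beside 12.7% of all genes tested that were called, 4.73% higher and 7.96% lower. The median log2 fold change of the 10 genes was 0.1, and that of all genes tested was 0.02. In 3 of the 10 genes, *up*, *bt* and *Tm2*, the samples of the groups did not overlap, which was also the case for 43% of all genes tested. *bt* lay higher, as did 20.4% of all genes tested without overlap, and *up* and *Tm2* lay lower, as did 22.5%. The 10 genes together took 0.00212% to 0.00425% of all counts in *pros*-depleted samples and 0.00313% to 0.00395% in control samples. What made up this small share differed, since *up* gave 3.11% to 5.1% of the contractile gene counts in *pros*-depleted samples and 50.1% to 61.2% in control samples. The plot of levels by sample shows each gene on a common scale.

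**Figure D1:**
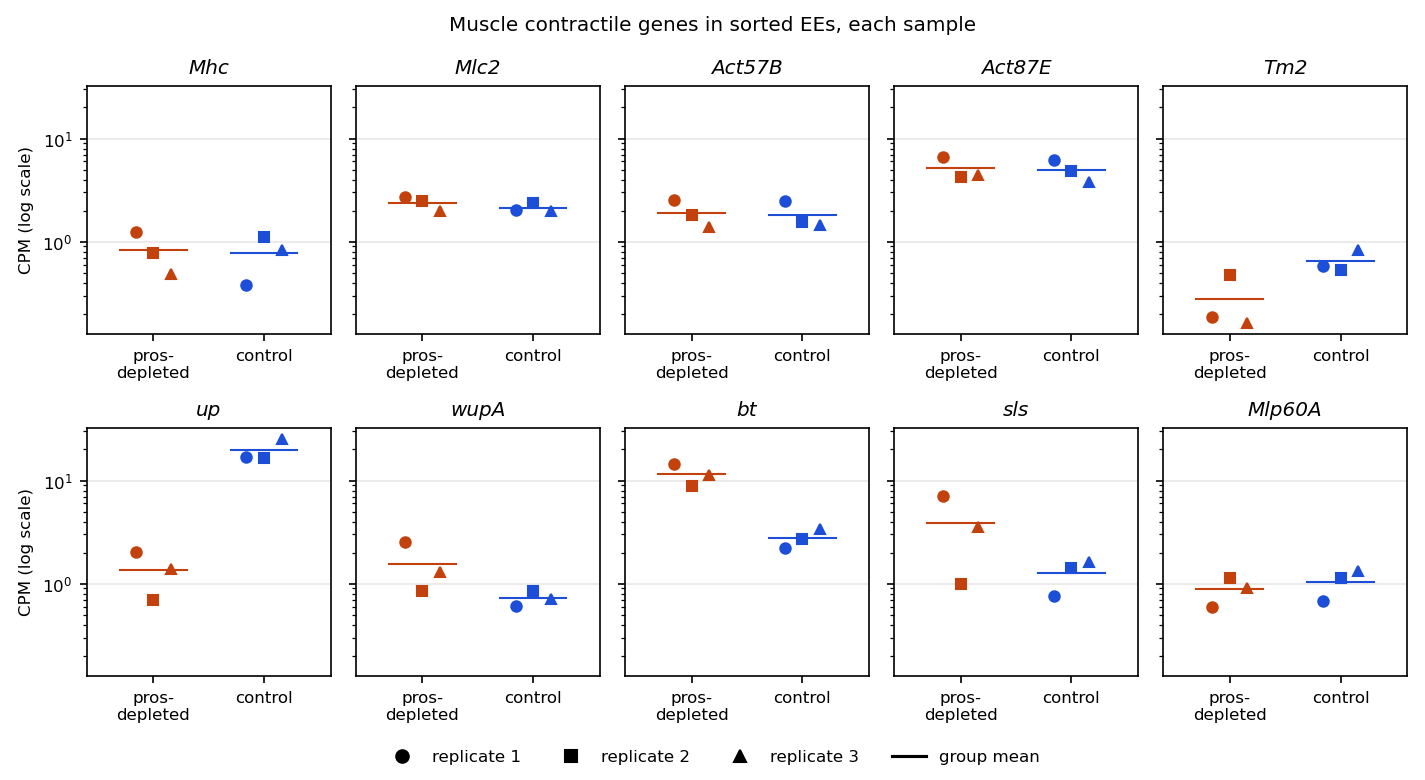
Level of each contractile gene in every sample, in CPM on a log scale, with *pros*-depleted samples left of control samples, a symbol for each replicate and a line at the group mean (n = 3 each). The groups of *up* are far apart, with at most 2.04 CPM in *pros*-depleted samples and at least 16.6 CPM in control samples, those of *bt* lie apart the other way, and the myosin and actin genes overlap.

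Troponin T is the subunit that anchors the troponin complex to tropomyosin, and its gene, *up* (*upheld*, FBgn0004169), lies on chromosome X from 13593474 to 13602578 in BDGP6. It had 65, 19 and 42 counts in *pros*-depleted replicates 1, 2 and 3, or 2.04, 0.696 and 1.38 CPM, against 677, 465 and 872 counts in control replicates 1, 2 and 3, or 17.0, 16.6 and 25.1 CPM. Every *pros*-depleted sample lay far below every control sample. The level averaged 1.37 ± 0.67 CPM in *pros*-depleted EEs and 19.6 ± 4.78 CPM in control EEs (SD, n = 3 each), 14.3-fold lower after depletion. The log2 fold change was -3.82 (SE 0.386, adjusted p = 0.000388, edgeR's quasi-likelihood test, Benjamini-Hochberg), with a 95% interval of -4.71 to -2.94. Of the 10 genes, *up* had the highest level per length in control EEs, at 7.74 ± 1.89 RPKM (CPM per kilobase of exons, SD, n = 3), where 42.8% of the genes tested had a higher level. In *pros*-depleted EEs it had 0.542 ± 0.265 RPKM (SD, n = 3), and 86% of the genes tested had a higher level. The exons of *up* overlap no other gene of the table. The reference annotation lists 18 transcripts of *up*, which counts per gene do not tell apart.

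Troponin I, the inhibitory subunit, is encoded by *wupA* (chromosome X, 18105568 to 18116922), and it did not follow troponin T. Its counts were 80, 23 and 40 in *pros*-depleted samples, or 2.51, 0.843 and 1.31 CPM, against 24, 24 and 25 in control samples, or 0.604, 0.857 and 0.719 CPM. Control samples were alike, *pros*-depleted replicates 1 and 3 lay above all of them, and *pros*-depleted replicate 2 lay among them. The log2 fold change of 1.10 was not called (SE 0.466, edgeR adjusted p = 0.121, Benjamini-Hochberg), with a 95% interval of 0.03 to 2.17. Per kilobase, the ratio of *up* to *wupA* was 0.635, 0.646 and 0.821 in *pros*-depleted samples and 22.1, 15.1 and 27.3 in control samples. The RNAs of these subunits of the same complex were thus at similar levels per length in *pros*-depleted EEs, and far from equal in control EEs.

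Tropomyosin, the coiled coil that runs along the thin filament, is encoded in part by *Tm2* (chromosome 3R, 15310193 to 15315197), the rarest of the 10 genes by CPM. There were 6, 13 and 5 counts in *pros*-depleted samples, or 0.188, 0.476 and 0.164 CPM, against 23, 15 and 29 counts in control samples, or 0.579, 0.536 and 0.835 CPM. The groups did not overlap, but the highest *pros*-depleted sample lay close to the lowest control sample, and their exact Poisson 95% intervals, 0.254 to 0.815 CPM and 0.3 to 0.883 CPM, overlapped widely. These intervals hold only counting error, because reads of amplified RNA do not each stand for a molecule. The log2 fold change of -1.24 was not called (SE 0.523, edgeR adjusted p = 0.119, Benjamini-Hochberg), with a 95% interval of -2.44 to -0.04. It was -1.85 without *pros*-depleted replicate 2 (edgeR adjusted p = 0.0373, Benjamini-Hochberg) and -0.97 without *pros*-depleted replicate 3. *Tm2* passed the filter through the control samples, since 1 *pros*-depleted sample reached 10 counts.

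The muscle actin genes *Act57B* and *Act87E* showed no difference beyond their spread. *Act57B* (chromosome 2R, 20944021 to 20946431) had 2.51, 1.83 and 1.38 CPM in *pros*-depleted samples and 2.49, 1.54 and 1.44 CPM in control samples. *Act87E* (chromosome 3R, 13425983 to 13428375) had 6.67, 4.25 and 4.46 CPM in *pros*-depleted samples and 6.22, 4.86 and 3.77 CPM in control samples. For both genes, replicate 1 was the highest sample of either group and the groups overlapped. Their log2 fold changes were 0.06 (95% interval -0.78 to 0.90) and 0.05 (95% interval -0.60 to 0.71). The ratio of *Act87E* to *Act57B* per kilobase stayed between 2.01 and 2.81 in *pros*-depleted samples and between 2.16 and 2.74 in control samples. Actin genes are near-identical copies, and how reads with several positions were counted is not given in the sources used here, so the split of reads among them is uncertain. *Act5C*, the main cytoplasmic actin, was far more abundant, and the ratio of *Act87E* to *Act5C* per kilobase was 0.00166 to 0.00299 in *pros*-depleted samples and 0.00246 to 0.00288 in control samples. Exons of *Act57B* share 96 bp with a snoRNA gene on the same strand that had 0 counts, and those of *Act87E* share 60 bp with *CR45591* on the opposite strand, which had 0 counts in *pros*-depleted and 2 in control samples.

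Neither *Mhc* nor *Mlc2* of the thick filament was called. *Mhc* (chromosome 2L, 16766566 to 16788766), the muscle myosin heavy chain and motor of the thick filament, had 40, 21 and 15 counts in *pros*-depleted samples, or 1.25, 0.77 and 0.492 CPM, against 15, 31 and 29 counts in control samples, or 0.378, 1.11 and 0.835 CPM. The samples of each group were spread over the same range, with no order between the groups. Its log2 fold change was 0.13 with a wide 95% interval of -1.08 to 1.34. *Mlc2* (chromosome 3R, 30171438 to 30174551), the regulatory light chain of the muscle motor, had 2.73, 2.46 and 2.00 CPM in *pros*-depleted samples and 2.01, 2.36 and 1.99 CPM in control samples. It varied least of the 10 genes among replicates, with a coefficient of variation of 15.3% in *pros*-depleted and 9.74% in control samples, where counting error alone gives 11.8% in each group. Its log2 fold change of 0.18 had the narrowest 95% interval among the genes not called, -0.45 to 0.81.

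Projectin is a giant protein of the connecting filaments, and its gene, *bt* (*bent*, FBgn0005666), lies on chromosome 4 from 724400 to 776474. It had 463, 243 and 347 counts in *pros*-depleted samples, or 14.5, 8.90 and 11.4 CPM, against 89, 76 and 119 counts in control samples, or 2.24, 2.71 and 3.42 CPM. Every *pros*-depleted sample lay above every control sample. The level averaged 11.6 ± 2.81 CPM in *pros*-depleted EEs and 2.79 ± 0.596 CPM in control EEs (SD, n = 3 each), a 4.15-fold rise. The log2 fold change was 2.05 (SE 0.268, adjusted p = 0.00127, edgeR's quasi-likelihood test, Benjamini-Hochberg), with a 95% interval of 1.44 to 2.67. Its merged exons span 28019 bp, so that per kilobase it remained low, at 0.414 ± 0.1 RPKM in *pros*-depleted EEs and 0.0997 ± 0.0213 RPKM in control EEs (SD, n = 3 each), and 88.6% of the genes tested had a higher level in *pros*-depleted EEs and 97.6% in control EEs. No other gene of the table overlaps its exons. Of 8 enterocyte markers, 7 had a positive log2 fold change, as *bt* had, and *Jon99Ci* had -1.22. All 7 progenitor markers had a positive log2 fold change. The part of either marker set in the rise of *bt* was not tested.

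The other giant gene, *sls* (*sallimus*, chromosome 3L, 2039681 to 2115611), encodes titin-like proteins that bind thin filaments at the Z disc. Its counts were 227, 27 and 107 in *pros*-depleted samples, or 7.11, 0.989 and 3.51 CPM, against 30, 40 and 56 in control samples, or 0.755, 1.43 and 1.61 CPM. Replicates 1 and 3 of the *pros*-depleted EEs lay above all control samples, while replicate 2 lay below the higher control samples, so that the groups overlapped. The log2 fold change of 1.62 was not called (SE 0.648, edgeR adjusted p = 0.105, Benjamini-Hochberg), with a 95% interval of 0.13 to 3.11. Without *pros*-depleted replicate 1 it was 0.85, and without replicate 2 it was 2.08 (adjusted p = 0.0177 from the same edgeR test), still short of the threshold. The ratio of *bt* to *sls* per kilobase was 4.29, 19.0 and 6.83 in *pros*-depleted samples and 6.25, 4.0 and 4.47 in control samples. Exons of *sls* share 1089 bp of 58996 bp with *CR42860* on the opposite strand, which had 2 counts in each group.

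*Mlp60A* (chromosome 2R, 24074602 to 24078223) encodes a muscle LIM protein. It had 0.595, 1.14 and 0.919 CPM in *pros*-depleted samples and 0.680, 1.14 and 1.32 CPM in control samples. The groups overlapped, and the log2 fold change was -0.25 (95% interval -1.21 to 0.72).

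**Figure D2:**
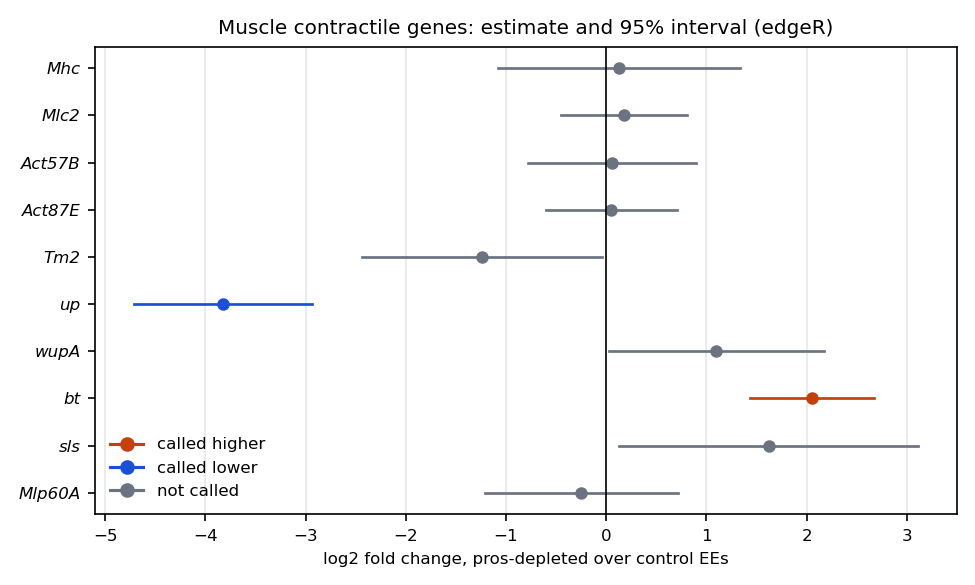
Log2 fold change of each contractile gene, *pros*-depleted over control EEs, with its 95% interval from edgeR's quasi-likelihood fit (n = 3 each). The interval of *up* (-4.71 to -2.94) and that of *bt* (1.44 to 2.67) lie on opposite sides of 0, those of *Mhc*, *Mlc2*, *Act57B*, *Act87E* and *Mlp60A* include 0, and those of *Tm2*, *wupA* and *sls* end near it.

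Among replicates of a group, the genes moved together in part. In *pros*-depleted replicate 1, 8 of the 10 genes lay above the mean of their group on the log2 CPM scale and were the highest of the group, with *Tm2* and *Mlp60A* as the exceptions, and the median deviation was 0.42. Over 10288 genes with a count in every sample, 49.7% lay above the group mean in that sample. In *pros*-depleted replicate 2, *up*, *bt*, *sls*, *wupA* and *Act87E* were the lowest of the group, and *Tm2* and *Mlp60A* the highest. The largest deviations were those of *sls*, at 1.29 in *pros*-depleted replicate 1 and -1.56 in replicate 2. In control replicate 1, 8 genes lay below their group mean and both actin genes above it. *bt*, *sls* and *up* were the highest in the same sample of each group, *pros*-depleted replicate 1 and control replicate 3, although *up* changed in the opposite direction to *bt* between the groups. These are descriptions over 3 samples a group. Counting error accounts for a part that differs by gene. For *sls* the coefficient of variation was 79.5% in *pros*-depleted samples, against 9.12% from counting alone, and for *Mlp60A* it was 30.8% against 19.6%. Without *pros*-depleted replicate 1, *bt* (log2 fold change 1.87) and *up* (-4.21) remained called, *wupA* had a log2 fold change of 0.59, and *Mhc* turned to -0.27, *Act57B* to -0.18 and *Act87E* to -0.17, none of them called.

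**Figure D3:**
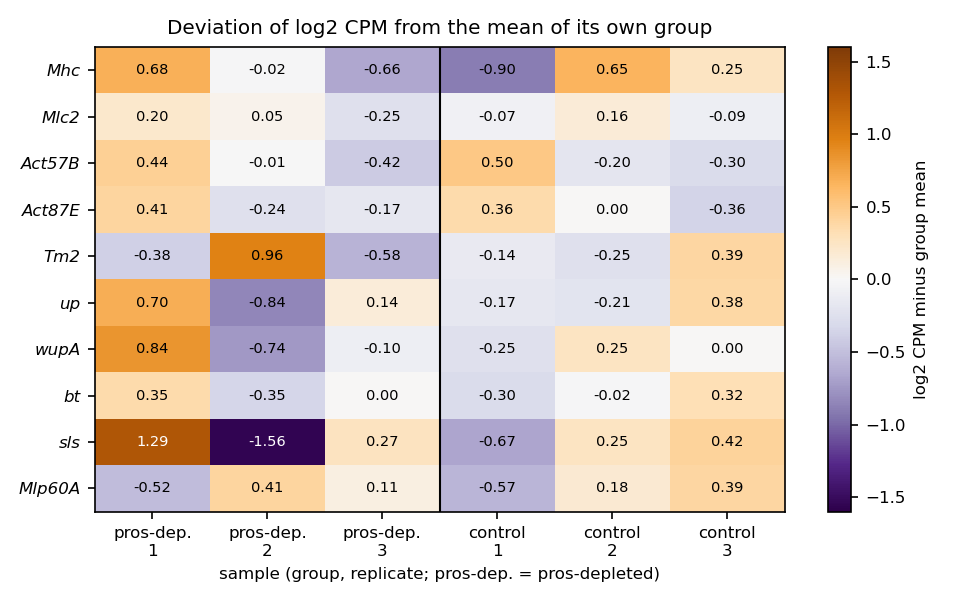
Deviation of log2 CPM from the mean of its own group for each contractile gene (down) in each sample (across), in log2 units. *Pros*-depleted replicate 1 is above the mean for 8 of 10 genes, and *sls* has the widest range, 1.29 to -1.56, among *pros*-depleted samples.

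Of 25 other sarcomere genes, 21 were tested, of which 1 was called higher and 2 lower. Of all genes tested, 4.73% were called higher and 7.96% lower. Their median log2 fold change was 0.59, against 0.02 over all genes tested. The troponin C gene *TpnC4*, known as the main calcium-binding subunit of flight muscle, had 5, 3 and 3 counts in *pros*-depleted samples against 83, 106 and 102 counts in control samples. Its level was 0.122 ± 0.0308 CPM in *pros*-depleted EEs and 2.94 ± 0.847 CPM in control EEs (SD, n = 3 each). edgeR called it lower, but the gene passed the filter only through the control samples, and its *pros*-depleted counts were at or near the floor of 3, so that the size of its change is not given. It was also called with a filter on the mean over all samples, at 50 counts. That mean rests on the control samples as well, with 291 counts there in total against 11 in *pros*-depleted samples. With any control sample left out, fewer than 3 samples reached 10 counts and the gene was not tested. *TpnC41C*, another troponin C gene, named after its values were seen, had 11, 9 and 4 counts against 37, 71 and 32 counts. It passed the filter through the control samples, since *pros*-depleted replicates 2 and 3 were under 10 counts. Its log2 fold change of -2.42 was not called (adjusted p = 0.0201, edgeR, Benjamini-Hochberg), although DESeq2 called it lower after the same filter. *TpnC73F* had a log2 fold change of 0.72, and *TpnC47D* and *TpnC25D* had at most 5 counts in any sample and were not tested.

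*Mf*, which encodes the thick filament protein myofilin, had 317, 172 and 127 counts in *pros*-depleted samples and 38, 25 and 54 counts in control samples. The groups did not overlap, at 6.80 ± 2.91 CPM against 1.13 ± 0.365 CPM (SD, n = 3 each), and *Mf* was called higher with a log2 fold change of 2.58 (SE 0.398, adjusted p = 0.00273, edgeR's quasi-likelihood test, Benjamini-Hochberg). It was not called without control replicate 1 or without control replicate 2. The other thick filament genes were not called or not tested. *Prm*, the gene of paramyosin, the filament core protein, had a log2 fold change of 1.19, *Mlc1*, the other light chain, had -0.10, and *fln*, the gene of the flight muscle protein flightin, had at most 3 counts in any sample. Among Z disc genes, *Zasp52*, a PDZ and LIM protein that also serves at integrin adhesions outside muscle, fell to 64.7 ± 7.97 CPM in *pros*-depleted EEs, against 119 ± 14.4 CPM in control EEs (SD, n = 3 each). Its log2 fold change was -0.88 (SE 0.180, adjusted p = 0.00931, edgeR's test, Benjamini-Hochberg), close to the threshold, and it was called in none of the 6 leave-one-out fits.

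Several sarcomere genes that are also used outside muscle were abundant and not called. *Tm1*, the other tropomyosin gene, had 825 ± 63.2 CPM in *pros*-depleted EEs and 539 ± 109 CPM in control EEs (SD, n = 3 each), and its log2 fold change of 0.61 had an adjusted p of 0.0519 from edgeR. The capping protein genes *cpa* and *cpb*, which close the fast-growing end of actin filaments, had log2 fold changes of 0.60 and -0.04, *tmod*, the tropomodulin gene, 0.10, and *Lasp*, an actin-binding LIM and SH3 protein, -0.36. *Msp300*, which links nuclei to actin, had 79405, 16892 and 81429 counts in *pros*-depleted samples and 28393, 9892 and 66978 counts in control samples, with wide overlap and a log2 fold change of 0.95. As in *sls*, replicate 2 was the lowest of the *pros*-depleted samples. *Act79B*, a muscle actin of the tubular muscles, had 52, 42 and 34 counts against 28, 19 and 22 counts. It lay higher without overlap, as did 20.4% of all genes tested. The log2 fold change of *Act79B*, 1.08, was not called (adjusted p = 0.0506, edgeR, Benjamini-Hochberg). None of 7 cytoplasmic actin, myosin II and actin-binding genes was called, and their log2 fold changes ran from 0.15 to 0.79. In the same edgeR fit 2 of them had an unadjusted p under 0.05, as did 38.7% of all genes tested. DESeq2 called 1, *zip*, the myosin II heavy chain gene, higher, as it did 976 of the 10374 genes tested. The log2 fold changes were 0.76 for the cytoplasmic actin *Act42A*, 0.41 for the light chain gene *Mlc-c*, 0.16 for *tsr*, the cofilin gene, and 0.15 for *chic*, the profilin gene. By level per length, *Act5C* had 1150 RPKM in *pros*-depleted EEs and 905 RPKM in control EEs as group means, and *Act87E*, the highest muscle actin, had 2.58 RPKM in *pros*-depleted EEs and 2.49 RPKM in control EEs.

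**Figure D4:**
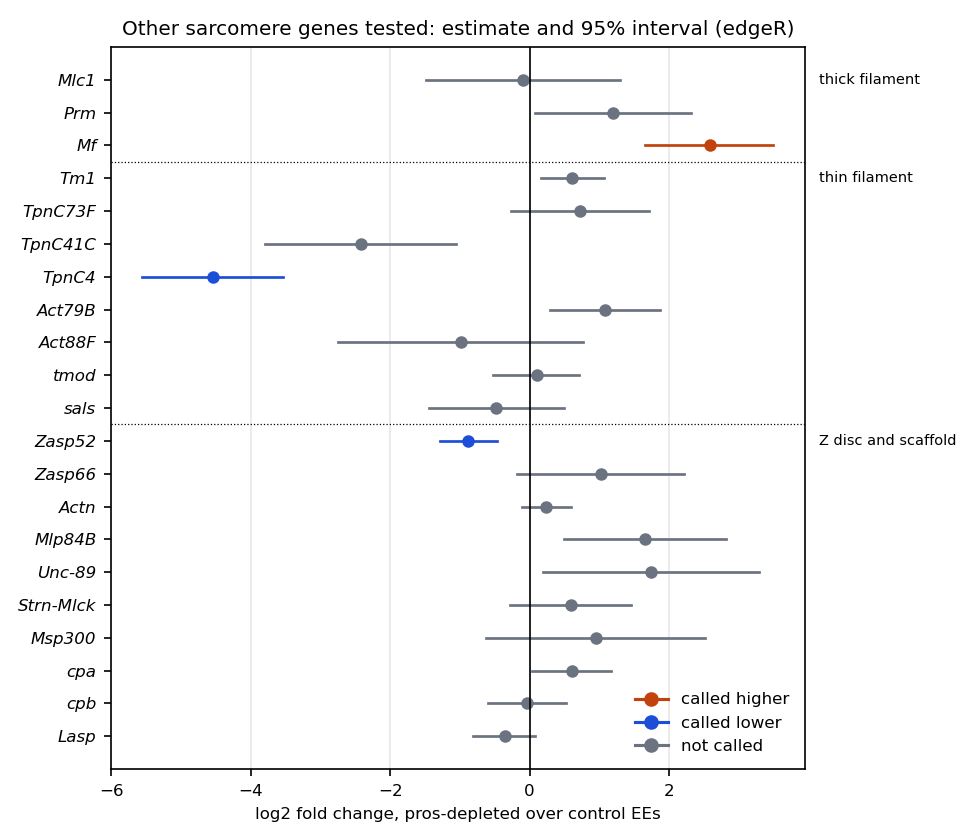
Log2 fold change of the 21 other sarcomere genes tested, *pros*-depleted over control EEs, with 95% intervals from edgeR's quasi-likelihood fit (n = 3 each), in sets divided by dotted lines. *Zasp52* (-0.88) was called lower and *Mf* (2.58) higher. *TpnC4* was also called lower, but it passed the filter only through the control samples. Its position rests on 3 to 5 counts in *pros*-depleted samples. *TpnC41C*, with an interval of -3.79 to -1.06, was not called and also passed the filter through the control samples.

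Of 5 calcium and energy genes of muscle, 1 was called lower, as were 7.96% of all genes tested. This was *RyR*, the ryanodine receptor that releases calcium from internal stores. It had 34, 45 and 24 counts in *pros*-depleted samples and 130, 107 and 146 counts in control samples, without overlap. The log2 fold change was -1.69 (SE 0.342, adjusted p = 0.00894, edgeR's test, Benjamini-Hochberg), close to the threshold. *Ca-P60A*, the calcium pump that refills these stores, had a log2 fold change of -0.28, *Argk*, arginine kinase, 0.70, *Gpdh*, glycerol-3-phosphate dehydrogenase, -0.73, and *Mp20*, a calponin-like muscle protein, 0.22, none of them called, although DESeq2 called *Gpdh* lower.

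Markers and regulators of visceral muscle were scarce in both groups, apart from *Mef2*, a muscle transcription factor, which had 32.0 ± 4.55 CPM in *pros*-depleted EEs and 33.7 ± 3.53 CPM in control EEs (SD, n = 3 each). The 6 visceral muscle markers summed to between 33.5 and 41.3 CPM in *pros*-depleted samples and between 34.9 and 45 CPM in control samples. Of these, 5 were tested and none was called by edgeR, with 1, *bin*, at an unadjusted p under 0.05. Of all genes tested, 38.7% had such a p in edgeR, and 4.73% were called higher. *bap* had 0 counts in every *pros*-depleted sample and 0, 0 and 2 counts in control samples. *HLH54F* had 6, 5 and 24 counts in *pros*-depleted samples and 20, 10 and 19 counts in control samples. *bin*, the FoxF factor of visceral mesoderm, had 27, 39 and 55 counts in *pros*-depleted samples and 9, 6 and 14 counts in control samples. It passed the filter through the *pros*-depleted samples, since control replicates 1 and 2 were under 10 counts. Its log2 fold change of 2.25 had an adjusted p of 0.0102 from edgeR, just past the threshold. After the same filter, DESeq2 called *bin* higher. *Hand* and *org-1*, further factors of this set, had log2 fold changes of -0.80 and 0.55. Of the 8 regulators, *vn* was called higher. It encodes an EGFR ligand that visceral muscle is known to supply to the epithelium, and had 249, 172 and 202 counts in *pros*-depleted samples and 88, 79 and 92 counts in control samples, a log2 fold change of 1.43 (SE 0.226, adjusted p = 0.003, edgeR's test, Benjamini-Hochberg). *how*, an RNA-binding regulator, had 0.76 and was not called.

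Cells other than the GFP+ EEs should be removed by the sort. Markers of trachea, hemocytes and fat body each summed to at most 38.7 CPM in any sample. Without *up*, the contractile genes summed to 21.7 to 38.1 CPM in *pros*-depleted samples and 15.9 to 16.5 CPM in control samples. With *bt* left out as well, the sums overlapped, at 12.8 to 23.6 CPM in *pros*-depleted samples and 12.5 to 13.8 CPM in control samples. The 38.7 CPM was the hemocyte sum of control replicate 2, where the contractile genes without *up* summed to 16.5 CPM. In *pros*-depleted replicate 1, tracheal, hemocyte and fat body sums were 6.83, 13.6 and 12.6 CPM, against 38.1 CPM for contractile genes without *up*. Enterocyte markers reached 8020 CPM in that sample. How much of the contractile gene RNA came from other cells was not tested. Tracheal markers summed to between 5.88 and 7.07 CPM in *pros*-depleted samples against 8.2 to 11 CPM in control samples. None of 5 tested was called by edgeR, with 1 at an unadjusted p under 0.05 and 1 called lower by DESeq2. Of all genes tested, 38.7% had an unadjusted p under 0.05 in edgeR, which called 4.73% higher and 7.96% lower. DESeq2 called more of these 10374 genes, 976 higher and 1267 lower. Hemocyte markers summed to between 8.8 and 13.6 CPM against 15.3 to 38.7 CPM, and none of 5 tested was called by edgeR, with 3 at an unadjusted p under 0.05 and 2 called lower by DESeq2. *NimC2*, a hemocyte receptor gene, had 0 counts in every *pros*-depleted sample and 0, 3 and 3 counts in control samples, at or under the floor in both groups. Fat body markers summed to between 9.49 and 30.9 CPM against 2.11 to 16.9 CPM, and none of 3 tested was called by edgeR or DESeq2, with 0 at an unadjusted p under 0.05. Neuron markers summed to between 336 and 433 CPM against 677 to 776 CPM, and 2 of 6 were called lower by edgeR, with 4 at an unadjusted p under 0.05 and 3 called lower by DESeq2. The EE marker sum, at most 10100 CPM in *pros*-depleted samples and at least 77100 CPM in control samples, was lower together with *up*, as were the neuron, hemocyte and tracheal sums, and the part of each in the fall of *up* was not tested.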

How the data were processed

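Reads of 3 *pros*-depleted and 3 control EE samples were mapped by the authors to BDGP6 and counted per gene with featureCounts 1.6.3, per the labels. The aligner, the strand setting and the treatment of reads with several positions are not given in the sources used here. The deposited values are raw counts without normalization, beside each gene's exonic length, which was used for RPKM. Coordinates are those of the table. The BDGP6 reference annotation holds the same start and end for all 10 genes.

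Counts were analysed with edgeR 4.0.16 in R 4.3.3. A gene was kept where 3 or more samples had 10 or more counts. Libraries were scaled by TMM, the quasi-likelihood test was used between groups, and p-values were adjusted over all genes kept (Benjamini-Hochberg). The thresholds for a call, 0.01 for the adjusted p and 0.5 for the log2 fold change, are those the study's methods set for DESeq2. SE is the absolute log2 fold change over the square root of F. The scripts were tested on simulated data. Alternatives were DESeq2 1.42.0, RLE factors, library size alone, other filters and thresholds, a replicate block and leaving out each sample. Joins used Python 3.11.15 with pandas 2.3.3, and figures matplotlib 3.10.9.

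The genes and lists were chosen with earlier results of these data known. Named were the 10 genes, *pros*, and genes of the muscle and cytoplasmic lists that were called or among the 5 highest per length in their list. Also named were the 5 genes with mean CPM of at least 10 whose pattern over samples was nearest to the median of the 10. Members of the cell type marker lists were named in part, *bin*, *HLH54F* and *bap* as visceral muscle markers. Outside this rule, *TpnC41C*, *TpnC47D*, *TpnC25D* and *zip* were named after their values were seen. So were *Syt4*, *NimC2* and *Jon99Ci* of the marker lists. Promoter motifs were not analysed here. Replicates are the independent samples that the study's methods state.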

Additional observations from a re-analysis of the deposited data

How the results depend on the processing

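*up* was called lower and *bt* higher under all 14 alternatives, at log2 fold changes of -4.21 to -3.51 and 1.87 to 2.22. No other gene of the 10 was called under any of them. Of 136 values of the 10 genes, 7 reversed, each with a sample left out and none called. Over these leave-one-out fits *Mhc* ran from -0.27 to 0.46, *Act57B* from -0.18 to 0.37 and *Act87E* from -0.17 to 0.26. All 3 were negative without *pros*-depleted replicate 1. *Mhc* was also -0.20 leaving out control replicate 1, *Act57B* -0.06 leaving out control replicate 2, and *Act57B* and *Act87E* -0.09 and -0.12 leaving out control replicate 3. At a mean count of at least 50, 4 genes (*Mhc*, *Mlp60A*, *Tm2* and *wupA*) were not tested.

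Over all genes, 976 were called higher and 1267 lower with DESeq2, and 1184 and 1519 at an adjusted p under 0.05. Leaving out a sample gave 188 to 317 higher and 413 to 596 lower, the fewest without control replicate 2. With library size and no further scaling, 596 were called higher and 677 lower, against 491 and 826, and the median log2 fold change of all genes shifted by 0.12. Same-numbered samples did not deviate together in every pair (correlations across genes of -0.164, 0.196 and 0.0995), so that the numbers were not taken to pair them. With the replicate block, 346 genes were called higher and 643 lower, *up* was -3.89, *bt* 2.05 and *pros* -1.99, and *Mf* and *Zasp52* were no longer called. Counting error alone gives *Tm2* a coefficient of variation of 35.4% in *pros*-depleted samples, where 62.9% was observed.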

Other observations

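Outside the muscle and cytoplasmic lists, 5621 genes were ranked by how near their pattern over the 6 samples, as log2 CPM minus its own mean, came to the median pattern of the 10 contractile genes. The median pattern ran from -0.15 to 0.45 in *pros*-depleted samples and from -0.30 to 0.03 in control samples, with *pros*-depleted replicate 1 the highest. The nearest gene was *Vha16-1*, a subunit of the vacuolar proton pump, with a root mean square difference of 0.098, followed by *alpha-Man-I* (0.0989), *DUBAI* (0.103), *CG10809* (0.104) and the transcription factor gene *foxo* (0.108). The median over the genes ranked was 0.398. *Vha16-1* had 3610, 2580 and 2300 CPM in *pros*-depleted samples and 1990, 2220 and 2330 CPM in control samples. Of the 10 genes themselves, *Mlc2* lay nearest to the median pattern (0.102), and *up* (2.15) and *Tm2* (1.01) lay farthest from it. Only *Mlc2*, *Act87E* (0.291) and *Act57B* (0.348) lay under the 0.398 of the genes ranked. The others began at *Mhc* (0.443) and *wupA* (0.493), so that a gene near this pattern is not near each of the 10.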
